A study of Silurus meridionalis with 18 samples.

Results

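The genes described here are the secreted signals of the Wnt, BMP (bone morphogenetic protein), FGF (fibroblast growth factor) and hedgehog pathways, with the receptors, binding proteins and antagonists that carry their names. They were taken from the protein names that the authors gave to their gene models: any name with "protein Wnt", frizzled, "bone morphogenetic protein", "fibroblast growth factor", "growth/differentiation factor", hedgehog, noggin, gremlin or chordin in it, letter case ignored, with growth/differentiation factor 8 (myostatin) left out. This gave 139 of the 25390 genes in the expression table. By name they were 23 Wnt ligands and the Wnt carrier wntless, 12 frizzled receptors, 6 secreted frizzled-related proteins (sFRPs), 1 membrane frizzled-related protein, 12 BMP ligands, 11 growth/differentiation factors (GDFs), 7 BMP receptors, 2 copies of the protease BMP1, 10 BMP antagonists or their relatives (3 noggins, 4 gremlins, 3 chordin-type proteins), 25 secreted FGFs, 7 FGF homologous factors, 8 FGF receptors or receptor-like proteins, 2 receptor adaptors, 6 FGF-binding proteins, 4 hedgehogs, 1 hedgehog-interacting protein and 1 hedgehog acyltransferase-like protein.

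Adult southern catfish (Silurus meridionalis), scaleless fish that carry sensory barbels at the mouth, were the source of polyadenylated RNA, which was sequenced from 18 tissues. As labelled, these were Ovary, Testis, Brain, Telecephlon (the telencephalon), Olfactory_bulb, Retina, Gill, Maxillary_barbel, Mandibular_barbel, Skin, Intestine, Liver, Pancreas, Heart, Muscle, Spleen, Kidney and Head_kidney (the blood-forming and endocrine front kidney). A single library stands for each tissue, the labels name no treatment, strain, sex or number of fish, and the comparisons are those between tissues. Values are FPKM as deposited, which scale the fragments of a gene by its length and by the library's total, so that levels of different genes can be compared. No test was run and no difference has a replicate check, since there are no replicates.

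As background, these pathways pattern the embryo and go on working in adult organs. Wnts are lipid-carrying proteins that bind frizzled receptors with LRP co-receptors, BMPs and GDFs bind serine/threonine kinase receptors that act through Smad proteins, FGFs bind receptor tyrosine kinases, and hedgehogs bind patched and so release smoothened. Each pathway has secreted antagonists: sFRPs and dickkopfs for Wnts, noggin, gremlin and chordin for BMPs, and the hedgehog-interacting protein for hedgehogs. Many of the genes exist as paired copies in bony fish.

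The libraries were of unequal depth. Read as the size of 1 fragment, the commonest low value of each library gave between 6320000 fragments in Skin and 51100000 fragments in Gill and Pancreas, with 9530000 in Muscle (3 significant digits). For a gene of 1 coding kilobase, 3 fragments then equal 0.474 FPKM in Skin, 0.315 FPKM in Muscle and 0.0587 FPKM in Gill. For such a gene an FPKM of 1, counted as detected below, lies above that floor in every library. The floor rises as a gene gets shorter. Coding lengths of the secreted FGFs ran from 372 to 801 bases, and for the shortest the floor in Skin is above 1 FPKM. Mitochondrial transcripts made up 55.8% of the summed FPKM in Testis and at most 11.0% (Heart) in the others, and hemoglobin made up 33.9% in Head_kidney and 21.6% in both Kidney and Spleen. Defining genes matched most labels: rhodopsin reached 34592 FPKM in Retina, atrial natriuretic peptide 8747 FPKM in Heart, hemopexin 65773 FPKM in Liver and an egg coat protein 9573 FPKM in Ovary. The Skin library went partly against its label, since slow troponin C, a muscle gene, stood at 1503 FPKM there against 34.7 FPKM in Muscle. The Gill label was less clearly marked. The 4 gill marker models summed to 36.0 FPKM in Gill, with 1 detected, and to 46.2 FPKM in Kidney, with 2 detected. The detected model, forkhead box protein I1 (C0J45_04968), was highest in Gill at 35.9 FPKM, with 8.91 FPKM in Kidney. Most of the Kidney sum was carbonic anhydrase 4 (C0J45_13954), at 37.3 FPKM there and 0.0212 FPKM in Gill.

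By their medians, signal genes peaked at lower levels and were more restricted to few tissues than all genes. Of the 139, 126 reached an FPKM of 1 somewhere, 90.6% against 87.4% of all genes. However, 70 of them, 50.4%, reached 10, against 60.2% of all genes. The median gene peaked at 10.4 FPKM, against 14.8 FPKM over all genes. Tau, an index of tissue restriction that is 0 for even expression and 1 for a single tissue, had a median of 0.793 among the 126 detected signal genes and of 0.613 among all detected genes. It was at least 0.85 in 46 signal genes, 36.5%, against 20.9% of all detected genes. With 0.1 added to each value in place of 1, it was 20 of the 126, against 10.1% of all detected genes. A single signal gene was detected in all 18 tissues, 0.719% against 10.2% of all genes. This was an acidic FGF intracellular-binding protein (C0J45_05061), a partner of FGF1 inside the cell, which ranged from 1.16 FPKM in Pancreas to 12.2 FPKM in Spleen.

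Olfactory_bulb and Gill held the most signal genes at an FPKM of 1 or more, 73 each. That was 52.5% of the list, against 66.6% of all genes in Olfactory_bulb and 62.1% in Gill. Brain followed with 69, Retina with 67, Telecephlon with 66, Mandibular_barbel with 65 and Maxillary_barbel with 58. The lowest counts were 14 in Muscle, 10.1% against 24.8% of all genes, 10 in Pancreas, 7.19% against 22.6%, and 7 in Ovary, 5.04% against 26.3%. In every tissue the share of signal genes was below that of all genes, and the median tissue held 51. Gill was the tissue of the highest level for 24 signal genes, 19.0% of those detected somewhere, against 11.1% of all detected genes. In bulk tissue, fewer cells of an expressing type and less RNA per cell cannot be told apart.

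**Figure D1:**
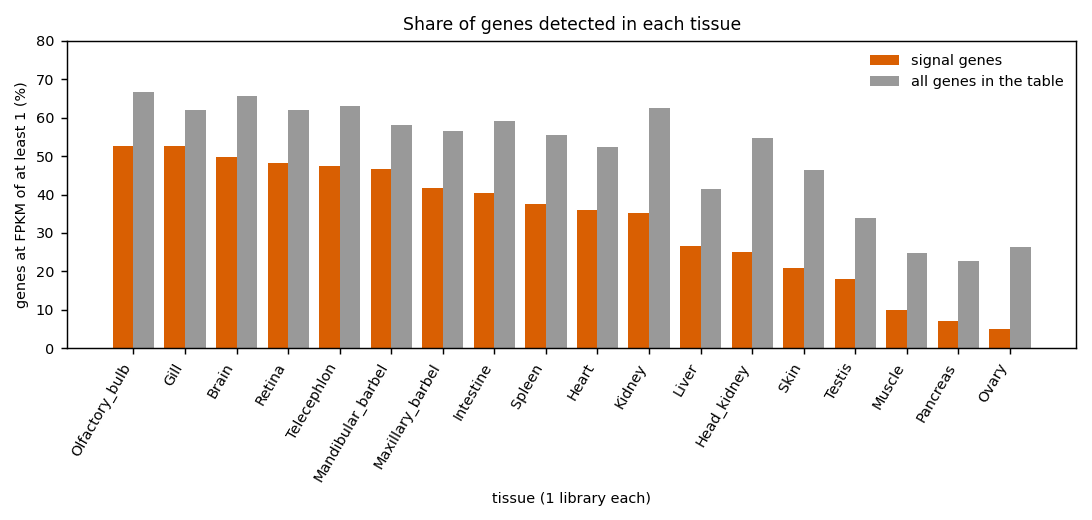
Share of genes at 1 FPKM or more in each of the 18 tissues, for the 139 signal genes (orange) and for all 25390 genes (grey), in order of the signal genes' share. The orange bar is below the grey bar in every tissue, with 52.5% in Olfactory_bulb and Gill at the high end and 5.04% in Ovary at the low end.

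By family, the highest medians of receptors were above those of ligands for Wnts and secreted FGFs. The median log2(FPKM + 1) of the 12 frizzled receptors was highest in Gill at 3.25, followed by 2.49 in Heart, and that of the 23 Wnt ligands was also highest in Gill, at 1.17, against a median over all genes of 2.09 in Gill. BMP ligands had their highest median in Gill at 3.25, followed by 2.71 in Heart, and BMP receptors in Brain at 3.24, followed by 2.88 in Gill. The 32 FGF ligands (secreted FGFs and homologous factors) had a highest median of 0.48 in Olfactory_bulb, while FGF receptors and adaptors reached 2.65 in Gill. The pool hides a split: the 25 secreted FGFs had a highest median of 0.30 in Olfactory_bulb, and the 7 homologous factors 3.73 in Telecephlon. Hedgehog ligands reached 1.37 in Gill and the BMP antagonists 2.83 in Gill. These medians are levels on the log2 scale, and the first-ranked tissue depends on scaling for several families: with every library set to the same upper quartile it was Heart for BMP ligands, Retina for FGF ligands and Kidney for hedgehog ligands.

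**Figure D2:**
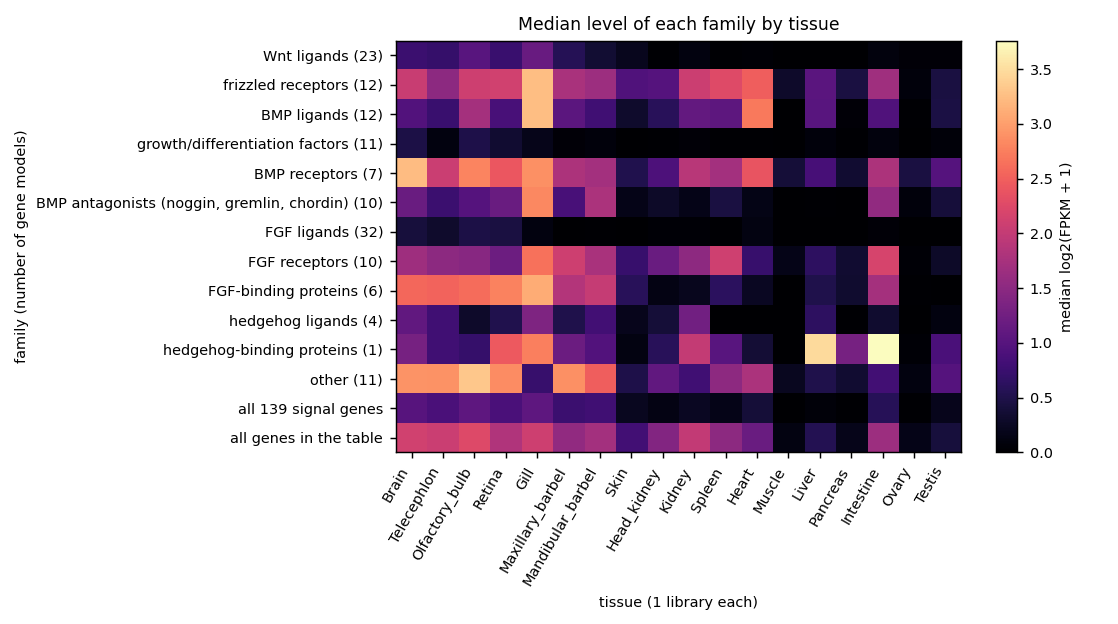
Median log2(FPKM + 1) over the gene models of each family (rows, with the number of models) in each of 18 tissues (columns), with the medians over all signal genes and over all genes in the last 2 rows. Gill has the highest median for 7 of the 12 families, and Muscle, Pancreas and Ovary are dark for most.

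The heat map of all 70 genes that reached 10 FPKM gives them by pathway and role.

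**Figure D3:**
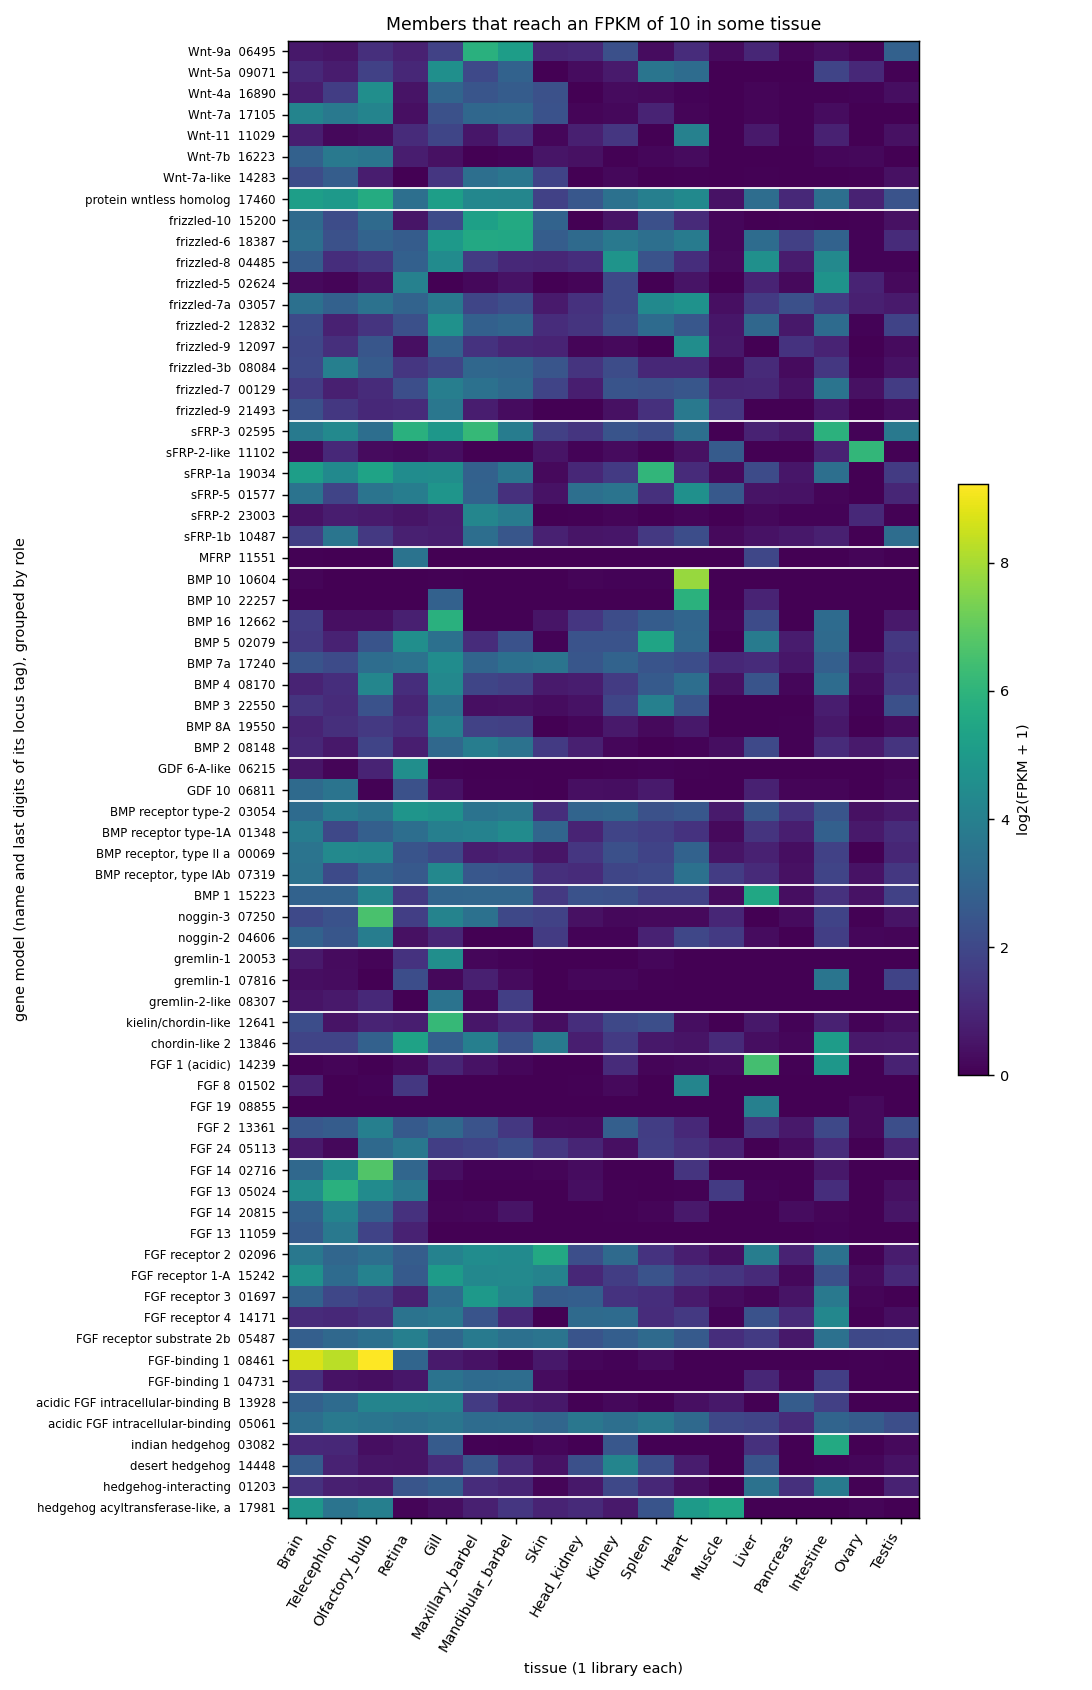
Levels of the 70 signal genes that reached an FPKM of 10 in some tissue (rows, grouped by role and ordered by highest level) across 18 tissues (columns), as log2(FPKM + 1). The brightest cells are FGF-binding protein 1 (C0J45_08461) in the 3 brain libraries and BMP10 (C0J45_10604) in Heart.

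The summed FPKM of the 23 ligands was 104 in Maxillary_barbel, 91.4 in Mandibular_barbel and 87.7 in Olfactory_bulb, with 61.1 in Gill, 52.3 in Brain, 50.8 in Telecephlon and 0.287 in Muscle. The barbel sums rest on Wnt-9a: without it they were 47.8 in Maxillary_barbel and 57.2 in Mandibular_barbel, with 86.4 in Olfactory_bulb and 58.5 in Gill. Of the 23 models, 21 reached an FPKM of 1 and 7 reached 10. Wnt-9a (C0J45_06495, chr6:23546255-23550104), which in mouse and chick acts in cartilage and joints, was the highest of them. It had 56.4 FPKM in Maxillary_barbel and 34.2 FPKM in Mandibular_barbel, then 6.34 FPKM in Testis, and a median over 18 tissues of 0.973 FPKM. Both barbels lay above every other tissue. The gene lies inside an intron of Wnt-3a on the opposite strand and shares no coding exon with it. Wnt-5a (C0J45_09071), a ligand best known for beta-catenin-independent signalling, had 23.0 FPKM in Gill, 11.0 FPKM in Spleen and 8.49 FPKM in Heart, and was listed at 0 in Liver. Wnt-4a (C0J45_16890) had 22.8 FPKM in Olfactory_bulb, against 2.18 FPKM in Telecephlon and 0.687 FPKM in Brain, so the 3 brain libraries were far apart for this ligand.

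Wnt-7a (C0J45_17105) had 16.9 FPKM in Brain, 16.7 FPKM in Olfactory_bulb and 12.3 FPKM in Telecephlon, with 7.66 FPKM in Mandibular_barbel, 7.51 FPKM in Maxillary_barbel and 0.316 FPKM in Retina. Its Wnt-7a-like copy (C0J45_14283) was higher in the barbels than in brain, with 11.5 FPKM in Mandibular_barbel, 9.46 FPKM in Maxillary_barbel, 5.52 FPKM in Telecephlon and 3.40 FPKM in Brain. A Wnt-7b model (C0J45_16223) had 12.4, 11.1 and 6.33 FPKM in Telecephlon, Olfactory_bulb and Brain, and at most 0.670 FPKM elsewhere. The other Wnt-7b model (C0J45_09582) was broader, with 8.71 FPKM in Brain, 7.77 FPKM in Olfactory_bulb, 5.89 and 5.90 FPKM in Maxillary_barbel and Mandibular_barbel, 4.24 FPKM in Skin and 3.25 FPKM in Gill. Wnt-7a was also detected in Skin (4.02 FPKM) and Gill (3.86 FPKM). Wnt-8b (C0J45_01535), which marks the embryonic forebrain of vertebrates, had 9.75 FPKM in Olfactory_bulb and 3.26 FPKM in Telecephlon, and at most 0.0384 FPKM in the other tissues. Wnt-8b was thus detected in 2 of 18 libraries. In Heart, Wnt-11 (C0J45_11029), a ligand needed for heart formation in frog and chick, had 15.5 FPKM, with 2.83 FPKM in Gill next, and Wnt-9b (C0J45_12849), known from kidney tubule formation in mouse, had 7.80 FPKM, with 4.17 FPKM in Kidney next. Other ligands peaked outside brain and Heart. Wnt-10a (C0J45_02494) had 8.29 and 7.54 FPKM in the barbels and 3.33 FPKM in Skin. Wnt-2b (C0J45_15636) had 7.77 FPKM in Intestine and 7.72 FPKM in Spleen, and Wnt-16 (C0J45_16155) had 5.19 FPKM in Gill and at most 0.373 FPKM elsewhere. Wnt-1 and a Wnt-8a model peaked at 0.999 and 0.488 FPKM and were not counted as detected.

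Wntless (C0J45_17460), which carries Wnts to the cell surface, was expressed far more widely than any Wnt ligand. It had 49.8 FPKM in Olfactory_bulb, 35.4 FPKM in Gill, 34.9 FPKM in Brain and 29.9 FPKM in Telecephlon, and it was detected in 16 of 18 tissues, with 0.362 FPKM in Muscle and 0.849 FPKM in Ovary. The broadest Wnt ligand, Wnt-5a, was detected in 10 tissues.

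The frizzled receptors differed in their highest tissues. Frizzled-10 (C0J45_15200) and frizzled-6 (C0J45_18387) were highest in the barbels. Frizzled-10 had 48.0 FPKM in Mandibular_barbel and 37.0 FPKM in Maxillary_barbel, with at most 8.21 FPKM elsewhere, and frizzled-6 had 47.1 and 45.4 FPKM in the Maxillary_barbel and Mandibular_barbel, followed by 29.9 FPKM in Gill. Frizzled-5 (C0J45_02624), a receptor with roles in eye and gut in mouse, had 25.9 FPKM in Intestine and 15.6 FPKM in Retina, and at most 2.97 FPKM in the other 16 tissues. Frizzled-8 (C0J45_04485) was high in Kidney (26.4 FPKM), Liver (23.8 FPKM), Gill (20.7 FPKM) and Intestine (19.1 FPKM). Heart had the highest level of 4 of the 12 receptors (and of 4.72% of all detected genes), frizzled-7a (C0J45_03057, 24.8 FPKM), both frizzled-9 copies (C0J45_12097, 22 FPKM, and C0J45_21493, 12.3 FPKM) and frizzled-4 (C0J45_11168, 8.99 FPKM). Frizzled-2 (C0J45_12832) was highest in Gill at 24.3 FPKM, and frizzled-3b (C0J45_08084) in Telecephlon at 14.8 FPKM. All 12 receptors reached 1 FPKM and 10 reached 10 FPKM.

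All 6 sFRPs, secreted proteins with a frizzled-type domain that bind Wnts, reached 10 FPKM, each in its own set of tissues. sFRP-3 (C0J45_02595) had 72.3 FPKM in Maxillary_barbel, 60.5 FPKM in Intestine and 57.7 FPKM in Retina, and was also the highest signal gene of Testis at 12.2 FPKM. sFRP-1a (C0J45_19034) had 67.1 FPKM in Spleen, 40.0 FPKM in Olfactory_bulb and 35.6 FPKM in Brain, but 1.04 FPKM in Head_kidney. sFRP-5 (C0J45_01577) had 27.4 FPKM in Gill and 24.1 FPKM in Heart. sFRP-2 (C0J45_23003, chr28:7088176-7089844) passed the rule for a barbel group (both barbels at 10 FPKM or more and the lower of them at least 5 times the highest other tissue, on FPKM + 1), with 17.6 FPKM in Maxillary_barbel, 13.2 FPKM in Mandibular_barbel and 1.10 FPKM in Ovary as the next. The sFRP-2-like gene (C0J45_11102, chr12:547279-548856) was highest in Ovary at 68.7 FPKM, with 5.28 FPKM in Muscle next and at most 1.08 FPKM elsewhere. Membrane frizzled-related protein (C0J45_11551), an eye-growth gene of the retinal pigment epithelium in mammals, had 10.4 FPKM in Retina and 2.87 FPKM in Liver and at most 0.0819 FPKM elsewhere.

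Other genes of the Wnt pathway were read from lists of symbols matched to protein names. On the list of secreted and membrane genes, 21 of 24 symbols matched 29 models. The dickkopf-3 model C0J45_08836, a dickkopf relative, was the highest of them at 77.9 FPKM in Brain, and the co-receptor LRP5 (C0J45_05497) had 42.7 FPKM in Liver. Of the 29, 2 were tissue-enriched, as were 7.51% of all genes. Tissue-enriched means at least 10 FPKM, with FPKM + 1 at least 5 times that of the next tissue. In 10 or more tissues, 9 of the 29 were detected, as were 50.3% of all genes. Sclerostin (C0J45_07120), an inhibitor of Wnt co-receptors made by bone cells in mammals, was enriched in Gill at 42.1 FPKM, with 6.08 FPKM in Spleen next, and a dickkopf-1 model (C0J45_15040) in Ovary at 33.0 FPKM, with 3.55 FPKM in Skin next. Kremen-1 (C0J45_22293), a dickkopf receptor, was highest in Mandibular_barbel at 14.8 FPKM and 10.6 FPKM in Maxillary_barbel. On the list of intracellular and target genes, all 14 symbols matched 19 models, of which 14 were detected in 10 or more tissues and none was tissue-enriched. Both beta-catenin models were detected in all 18 tissues, with 149 FPKM in Heart for the higher (C0J45_04166). A model of axin-2 (C0J45_13226), a feedback target of the pathway in mammals, was highest in Intestine at 11.3 FPKM and in Mandibular_barbel at 9.69 FPKM.

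By summed level, BMP ligands were highest in Heart and Gill. Their summed FPKM was 321 in Heart, 152 in Gill and 73.2 in Spleen, and 1.38 in Ovary. The 12 models included 3 that were tissue-enriched, as were 7.51% of all genes. Both copies of BMP10, a ligand of the heart muscle that drives its trabeculation in mouse, were enriched in Heart. The copy C0J45_10604 (chr11:8880983-8882732) had 222 FPKM in Heart and at most 0.0842 FPKM in any other tissue, and the copy C0J45_22257 (chr27:1312554-1314260) had 59.2 FPKM in Heart, 6.23 FPKM in Gill and 0.887 FPKM in Liver. Most of the Heart sum of 321 FPKM came from these copies, so it does not describe BMP ligands in general. Of 3 heart muscle markers, 2 were detected in Gill at low levels. Atrial natriuretic peptide stood at 2.68 FPKM there against 8747 FPKM in Heart, and an atrial myosin light chain at 5.15 FPKM against 17334 FPKM in Heart. These levels were not particular to Gill. In Brain, Head_kidney, Kidney and Spleen the peptide had 2.11, 2.81, 3.30 and 3.01 FPKM, and the light chain 4.27, 4.43, 4.17 and 5.11 FPKM. The part of heart tissue in the Gill level of BMP10 was not tested.

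BMP16 (C0J45_12662, chr13:28566695-28568602), a relative of BMP2 and BMP4 found in bony fish, was enriched in Gill at 57.2 FPKM, with 8.26 FPKM in Intestine and 7.04 FPKM in Heart following. BMP4 (C0J45_08170) was nearly equal in Gill (18.8 FPKM) and Olfactory_bulb (17.9 FPKM), while Telecephlon had 1.32 FPKM. BMP7a (C0J45_17240) was the broadest BMP ligand, at 21.4 FPKM in Gill, 10.9 FPKM in Skin, 10.2 FPKM in Retina and 1 FPKM or more in 16 tissues. BMP5 (C0J45_02079) had 40.9 FPKM in Spleen, 22.8 FPKM in Retina and 13.2 FPKM in Liver, and BMP3 (C0J45_22550), an inhibitory member of the family in mouse bone, had 15.0 FPKM in Spleen and 9.60 FPKM in Gill. A BMP2 copy (C0J45_08148) was highest in the barbels, at 14.0 FPKM in Maxillary_barbel and 10.3 FPKM in Mandibular_barbel. BMP8A (C0J45_19550) had 14.9 FPKM in Gill and at most 2.57 FPKM elsewhere, and BMP6 (C0J45_18374), which regulates iron through liver hepcidin in mammals, had 7.42 FPKM in Heart and 0.0466 FPKM in Liver.

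GDFs were lower. Of 11 models 8 reached 1 FPKM and 2 reached 10 FPKM. A GDF6-A-like gene (C0J45_06215, chr6:14284646-14286004), whose relatives mark the dorsal eye of fish and frog embryos, was enriched in Retina at 22.4 FPKM, with 0.886 FPKM in Olfactory_bulb next. A GDF10 copy (C0J45_06811) had 10.8 FPKM in Telecephlon, 8.09 FPKM in Brain and 3.91 FPKM in Retina, but 0.0419 FPKM in Olfactory_bulb. GDF2 (C0J45_06812), known as BMP9 and made by the liver in mammals, had 6.01 FPKM in Liver and at most 0.121 FPKM elsewhere. The oocyte factors of mammals were nearly absent from the Ovary library: GDF9 (C0J45_10081) stood at 0.549 FPKM and BMP15 (C0J45_06141) at 0.0822 FPKM, while the egg coat protein stood at 9573 FPKM.

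BMP receptors were spread over neural tissue, Gill and barbels. The type 2 receptor (C0J45_03054) had 27.2 FPKM in Retina and 24.1 FPKM in Gill, a type II a receptor (C0J45_00069) had 19.1 FPKM in Telecephlon and 18.5 FPKM in Olfactory_bulb against 3.01 FPKM in Gill, and the type 1A receptor (C0J45_01348) had 20.7 FPKM in Mandibular_barbel and 15.9 FPKM in Maxillary_barbel. None of the 7 was tissue-enriched. BMP1, which despite its name is a protease that trims procollagen and cleaves chordin, had 44.8 FPKM in Liver and 17.6 FPKM in Olfactory_bulb for the higher copy (C0J45_15223).

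Of the 10 antagonists and relatives, 3 were tissue-enriched, against 7.51% of all genes. Kielin/chordin-like protein (C0J45_12641, chr13:28281172-28300819, 46 coding exons), a many-domain relative of chordin that enhances BMP signalling in mouse kidney, was enriched in Gill at 71.0 FPKM, with 3.63 FPKM in Spleen next. A gremlin-1 copy (C0J45_20053, chr23:11894529-11894999) was also enriched in Gill, at 22.6 FPKM, with 1.55 FPKM in Retina next. A gremlin-2-like gene (C0J45_08307) had 10.4 FPKM in Gill and 2.26 FPKM in Mandibular_barbel. Gill had the highest level of 4 of the 12 BMP ligands and of 4 of the 10 antagonists and relatives, and of 11.1% of all detected genes. Noggin-3 (C0J45_07250, chr7:14679211-14679885, 1 coding exon) was enriched in Olfactory_bulb at 95.8 FPKM, with 16.5 FPKM in Gill and 9.80 FPKM in Maxillary_barbel following and 3.98 FPKM in Telecephlon. Noggin-2 (C0J45_04606) shared that peak at 14.2 FPKM. Chordin-like protein 2 (C0J45_13846) had 38.5 FPKM in Retina and 33.1 FPKM in Intestine, followed by 14.7 FPKM in Maxillary_barbel.

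The other BMP modulators and effectors were read from lists of symbols in the same way. Of 9 modulator symbols 8 matched 12 models. Of these, 1 was tissue-enriched, against 7.51% of all genes, and 10 were detected in 10 or more tissues, against 50.3%. The enriched model was follistatin-A (C0J45_22562), which binds activins and BMPs, with 48.8 FPKM in Retina and 4.33 FPKM in Gill. Follistatin-related protein 1 (C0J45_02614) reached 357 FPKM in Spleen, with 87.7 FPKM in Heart next. All 14 symbols of the receptor and effector list matched 22 models, with 1 enriched and 20 detected in 10 or more tissues. The enriched model was the inhibitory Smad7 (C0J45_19224), with 203 FPKM in Retina and 25.7 FPKM in Gill. Both Smad6 models, also inhibitory, were highest in Gill, at 46.5 FPKM (C0J45_12280) and 51.7 FPKM (C0J45_21863), with Heart next for both. Among the ID genes, transcriptional targets of BMPs, an ID-1 model (C0J45_17228) was at 403 FPKM in Spleen and ID-4 (C0J45_04177) at 292 FPKM in Telecephlon.

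Secreted FGFs were mostly low. Of 25 models 6 never reached 1 FPKM and 5 reached 10. FGF1 (C0J45_14239), acidic FGF, was the highest, at 86.8 FPKM in Liver and 28.7 FPKM in Intestine, and at most 1.19 FPKM in the other 16 tissues. FGF19 (C0J45_08855, chr9:12491623-12493203), a hormone that in mammals is released by the ileum and lowers bile acid synthesis in the liver, was enriched in Liver at 15.4 FPKM, with 0.183 FPKM in Ovary next, and was listed at 0 in Intestine. FGF8 (C0J45_01502, chr2:15549866-15553912), which patterns brain and heart in embryos, was enriched in Heart at 17.4 FPKM, with 1.85 FPKM in Retina next. FGF2 (C0J45_13361) was broad with 14.8 FPKM in Olfactory_bulb, and FGF24 (C0J45_05113), a ligand needed for pectoral fins in zebrafish, had 12.0 FPKM in Retina and 7.82 FPKM in Olfactory_bulb. FGF7 (C0J45_11927) was highest in Testis at 4.97 FPKM, FGF22 (C0J45_08524), a presynaptic organizer in mouse, in Olfactory_bulb and Telecephlon at 5.01 and 4.79 FPKM, and FGF17 (C0J45_15175) in Heart at 4.23 FPKM. FGF23, the bone hormone of phosphate balance in mammals, peaked at 0.390 FPKM and FGF21 (C0J45_04612) at 1.37 FPKM in Intestine.

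The co-receptors of hormone-like FGFs had few sites. Beta-klotho (C0J45_13368), which FGF19 needs in mammals, was enriched in Intestine at 67.2 FPKM, with 1.18 FPKM in Kidney next. Klotho (C0J45_10761), the partner of FGF23, was at 39.0 FPKM in Liver and 25.4 FPKM in Kidney. Each was detected in 2 tissues. FGF receptor 4 (C0J45_14171), the usual partner of FGF19, was highest in Intestine at 18.4 FPKM, with 11.7 FPKM in Gill, 10.4 FPKM in Retina and 3.99 FPKM in Liver. The ligand FGF19 thus peaked in Liver and its co-receptor in Intestine.

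FGF homologous factors (FGF11 to FGF14), which stay inside the cell and bind voltage-gated sodium channels, were highest in neural tissue. Their summed FPKM was 142 in Olfactory_bulb, 120 in Telecephlon, 52.3 in Brain and 24.9 in Retina, and at most 2.25 (Heart) in the other 14 tissues. All 6 models that reached 1 FPKM were highest in Telecephlon, Olfactory_bulb or Brain, which were the highest tissue of 12.8%, 7.52% and 5.47% of all detected genes. FGF14 (C0J45_02716) had 106 FPKM in Olfactory_bulb, 22.8 FPKM in Telecephlon, 7.59 FPKM in Brain and 7.34 FPKM in Retina. FGF13 (C0J45_05024) had 57.5 FPKM in Telecephlon, 22.1 FPKM in Brain, 20.9 FPKM in Olfactory_bulb and 11.9 FPKM in Retina. The order of the brain libraries thus differed between FGF13 and FGF14.

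FGF receptors were broad. FGF receptor 2 (C0J45_02096) was the highest signal gene of Skin, with 47.1 FPKM there, 21.2 FPKM in Maxillary_barbel and 20.3 FPKM in Mandibular_barbel. FGF receptor 1-A (C0J45_15242) had 32.7 FPKM in Gill and 24.5 FPKM in Brain, and FGF receptor 3 (C0J45_01697), a brake on cartilage growth in mammals, had 30.3 FPKM in Maxillary_barbel, 17.4 FPKM in Mandibular_barbel and 12.1 FPKM in Intestine. The receptor adaptor FRS2b (C0J45_05487) was detected in 17 of 18 tissues with 14.9 FPKM in Retina, whereas its relative FRS2 (C0J45_00670) had 7.04, 6.86 and 3.56 FPKM in Telecephlon, Olfactory_bulb and Brain and at most 0.839 FPKM elsewhere.

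The highest level of any signal gene belonged to FGF-binding protein 1 (C0J45_08461, chr8:27683892-27684455), a secreted carrier that frees FGFs from the matrix. It had 601 FPKM in Olfactory_bulb, 419 FPKM in Brain and 306 FPKM in Telecephlon, 7.15 FPKM in Retina and at most 0.570 FPKM in the other 14 tissues. It passed the rule for a group of the 3 brain libraries. Its namesake copy (C0J45_04731) had 10.6 FPKM in Gill and 8.79 and 8.29 FPKM in the barbels, with at most 2.28 FPKM elsewhere, so the copies differed in their highest tissues. The brain model is marked partial and has 1 coding exon of 564 bases. A further protein named for FGF, acidic FGF intracellular-binding protein B (C0J45_13928), had 17.2 FPKM in Retina and 16.8 FPKM in Olfactory_bulb and was the highest signal gene of Pancreas at 5.36 FPKM.

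Among feedback genes and effectors of FGF signalling, 16 of 17 symbols matched 23 models. Of these, 1 (beta-klotho) was tissue-enriched, against 7.51% of all genes, and 14 were detected in 10 or more tissues, against 50.3%. The list had its highest median log2(FPKM + 1) in Telecephlon at 2.84, followed by Gill at 2.70. Sprouty-1 (C0J45_13357), an inhibitor induced by FGFs, had 63.5 FPKM in Olfactory_bulb, a sprouty-2-like model (C0J45_14162) had 67.9 FPKM in Heart, and the phosphatase DUSP6 (C0J45_05429) had 54.5 FPKM in Gill. The transcription factor ETV5 (C0J45_00270) had 54.3 FPKM in Retina.

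The 4 hedgehogs each had another main tissue. Indian hedgehog (C0J45_03082, chr3:21417282-21422740), which in mammals is made by gut epithelium and growing cartilage, was enriched in Intestine at 47.8 FPKM, followed by 5.32 FPKM in Gill and 4.73 FPKM in Kidney. Desert hedgehog (C0J45_14448), known from testis and nerve sheaths in mammals, had 17.2 FPKM in Kidney, 5.31 FPKM in Brain and 0.366 FPKM in Testis. Sonic hedgehog A (C0J45_05663) and tiggy-winkle hedgehog (C0J45_18015), another sonic-type gene of fish, stayed low, at 2.06 FPKM in Gill and 2.61 FPKM in Retina at most. The hedgehog-interacting protein (C0J45_01203), a decoy receptor, was highest in the tissue of indian hedgehog, at 12.5 FPKM in Intestine, followed by 10.1 FPKM in Liver. The hedgehog acyltransferase-like gene (C0J45_17981), whose mammalian relative is found in muscle and heart, had 42.3 FPKM in Muscle, 31.7 FPKM in Heart and 28.0 FPKM in Brain, and it was the highest signal gene of Muscle.

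Of the 15 symbols of the hedgehog list 13 matched 15 models. None was tissue-enriched, against 7.51% of all genes, and 10 were detected in 10 or more tissues, against 50.3%. Gill had the highest level of 7 of the 15, and of 11.1% of all detected genes. The highest of all was a GAS1-like co-receptor (C0J45_12050) at 21.7 FPKM in Gill. Both patched-1 models, receptor and target of hedgehogs, were highest in Gill, at 9.09 FPKM (C0J45_05870) and 3.73 FPKM (C0J45_15483). Smoothened (C0J45_16074) had 9.10 FPKM in Gill and 2.44 FPKM in Heart, and the effector GLI1 (C0J45_00501) had 6.55 FPKM in Gill and 3.69 FPKM in Intestine. Of 7 cartilage and bone marker models, 6 were detected in Gill, with a summed level of 808 FPKM led by collagen X at 709.8 FPKM, and 1 aggrecan model was listed at 0. The part of that tissue in the Gill levels was not tested.

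In all, 11 signal genes were tissue-enriched, 7.91% against 7.51% of all genes. They were BMP10 (both copies) and FGF8 in Heart, BMP16, gremlin-1 and kielin/chordin-like protein in Gill, noggin-3 in Olfactory_bulb, GDF6-A-like in Retina, FGF19 in Liver, indian hedgehog in Intestine and sFRP-2-like in Ovary. The log2 ratio of their highest tissue over the next was 7.68 and 3.06 for the BMP10 copies, 3.96 for kielin/chordin-like protein and 2.65 for BMP16. Group-enriched were 2 signal genes, 1.44% against 1.56% of all genes, FGF-binding protein 1 in the brain libraries and sFRP-2 in the barbels. Neither share differs much from that of all genes, so the rules do not set these genes apart.

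In 7 comparisons a library, or the mean of both barbels, was set against another, for genes with at least 5 FPKM in either, and a gene counted as past the limit where FPKM + 1 differed 4-fold or more, a log2 ratio of 2. The added 1 makes the ratio of a low gene smaller than that of its FPKM. Between Maxillary_barbel and Mandibular_barbel, 1 of 31 signal genes was higher, against 0.341% of all genes, and 0 were lower, against 0.281%. The gene was sFRP-3, with 72.3 FPKM in Maxillary_barbel and 13.6 FPKM in Mandibular_barbel. The 7 cartilage and bone marker models summed to 261 FPKM in Maxillary_barbel and 32.0 FPKM in Mandibular_barbel, with 5 of 7 detected in each. Most of both sums was 1 aggrecan model (C0J45_05257), at 228 and 20.1 FPKM. Collagen II (2.16 and 3.29 FPKM) and the transcription factor Sp7 (2.98 and 3.21 FPKM) were higher in Mandibular_barbel. The part of cartilage and bone in the difference was not tested.

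Set against Skin, the mean of both barbels was higher for 11 of 28 signal genes, 39.3% against 27.6% of all genes, and lower for 0, against 3.64%. Of the 11, 4 were sFRPs, namely sFRP-1a, sFRP-1b, sFRP-2 and sFRP-3. Wnt-9a averaged 45.3 FPKM in the barbels and 0.934 FPKM in Skin (log2 ratio 4.58), and sFRP-3 averaged 42.9 FPKM in the barbels and 2.36 FPKM in Skin (log2 ratio 3.71). sFRP-2 averaged 15.4 FPKM in the barbels and was listed at 0 in Skin. Frizzled-6 averaged 46.3 FPKM in the barbels and 5.66 FPKM in Skin, and frizzled-10 averaged 42.5 FPKM in the barbels and 6.67 FPKM in Skin. The median log2 ratio of all genes compared was 1.16, and with it set to 0, 3 of the 11 stayed past the limit, Wnt-9a, sFRP-2 and sFRP-3, and FGF receptor 2 was lower at 20.7 FPKM in the barbels and 47.1 FPKM in Skin. Those 3 of 28 higher stand against 7.80% of all genes, and the 1 of 28 lower against 9.62%. So set, the counts lie near or below the shares of all genes. The 7 slow muscle marker models summed to 4.96 FPKM in Maxillary_barbel, 13.4 FPKM in Mandibular_barbel and 2365 FPKM in Skin, with 1, 1 and 5 detected and 4, 4 and 0 listed at 0. The 6 keratin and desmoplakin models summed to 26857, 22353 and 2949 FPKM in Maxillary_barbel, Mandibular_barbel and Skin. Most of these sums was 1 keratin 4 model (C0J45_00982), at 26435, 21978 and 2331 FPKM. The keratin 4 models C0J45_14628 and C0J45_14629 and the desmoplakin model C0J45_16613 went the other way and were higher in Skin. The 7 cartilage and bone models summed to 261, 32.0 and 0.576 FPKM in the same libraries. The part of these tissues in the differences was not tested.

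Set against Gill, the barbels were higher for 6 of 54 signal genes, 11.1% against 3.61% of all genes, and lower for 16, 29.6% against 7.42%. The 6 were Wnt-9a, Wnt-10a, Wnt-7a-like, frizzled-10, sFRP-2 and sFRP-1b. Of the 54 genes compared, 23 were Wnt ligands, wntless, frizzled receptors or sFRPs, and of these 6 were higher in the barbels and 5 were lower (Wnt-5a, Wnt-16, sFRP-5, frizzled-8 and a frizzled-9 copy). Frizzled-10 averaged 42.5 FPKM in the barbels and 3.21 FPKM in Gill (log2 ratio 3.37). A further 19 were BMP ligands, receptors, BMP1 or the antagonists and their relatives, of which 0 were higher and 9 were lower. The difference between the pathways was not tested. BMP16 averaged 0.0404 FPKM in the barbels and 57.2 FPKM in Gill (log2 ratio -5.81), kielin/chordin-like protein 0.794 FPKM in the barbels and 71.0 FPKM in Gill (log2 ratio -5.33), and gremlin-1 0.0909 FPKM in the barbels and 22.6 FPKM in Gill (log2 ratio -4.44). With the median log2 ratio of all genes, -0.26, set to 0, the counts were 6 higher and 13 lower, against 4.37% and 5.81% of all genes. The cartilage and bone markers summed to 261 and 32.0 FPKM in the barbels and 808 FPKM in Gill. Most of the Gill sum was 1 collagen X model (C0J45_16658), at 709.8 FPKM. The aggrecan models C0J45_05257 and C0J45_21836 had 228 and 18.5 FPKM in Maxillary_barbel, above 56.3 and 11.7 FPKM in Gill, and were below Gill in Mandibular_barbel. The 4 endothelium models summed to 4.24 FPKM in Maxillary_barbel, 4.94 FPKM in Mandibular_barbel and 137 FPKM in Gill, with 1, 2 and 4 detected, and the 6 keratin and desmoplakin models to 26857, 22353 and 2964 FPKM, with 4, 4 and 3 detected. The part of these cell types in the differences was not tested.

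**Figure D4:**
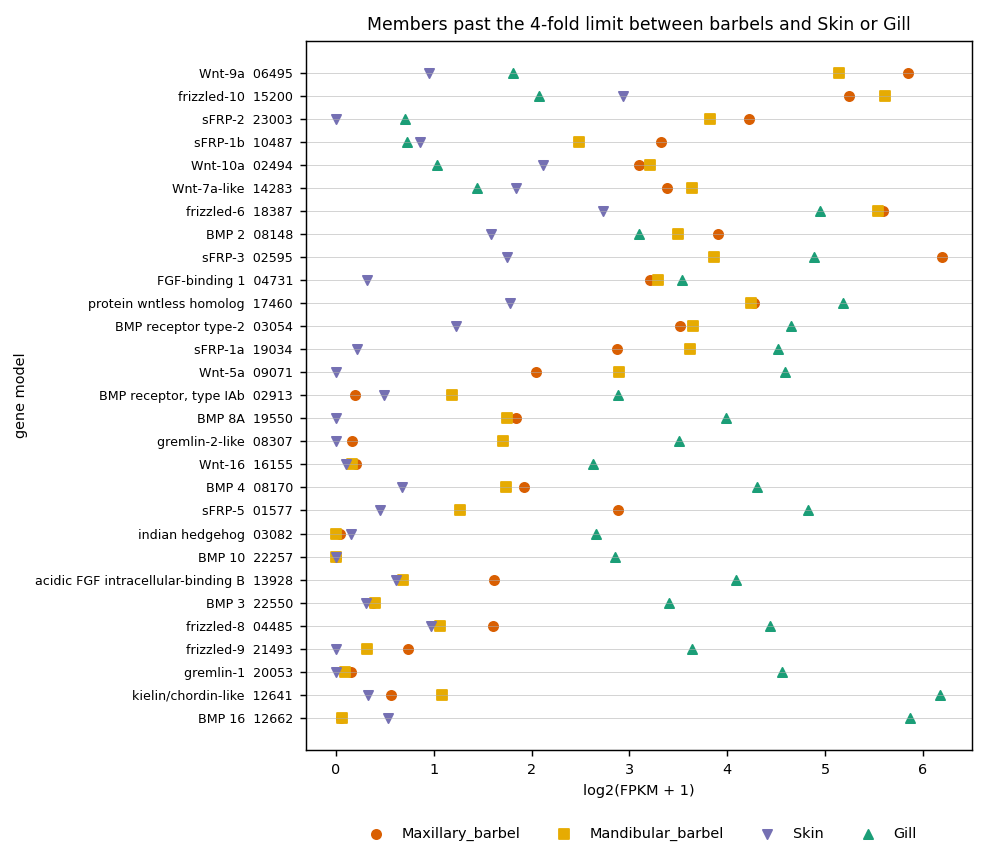
Levels, as log2(FPKM + 1), in Maxillary_barbel, Mandibular_barbel, Skin and Gill (1 library each) of the signal genes (name and last digits of the model number) past the 4-fold limit between the mean of the barbels and Skin or Gill, in order of the ratio of barbels over Gill. Wnt-9a is at the top with both barbels to the right of Skin and Gill, and BMP16 at the bottom with Gill far to the right.

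Telecephlon was set against Olfactory_bulb, the brain part in front of it. Of 45 signal genes 2 were higher in Telecephlon, 4.44% against 2.35% of all genes, and 5 were lower, 11.1% against 2.06%. Higher were GDF10, at 10.8 FPKM in Telecephlon and 0.0419 FPKM in Olfactory_bulb, and sFRP-1b (C0J45_10487), at 11.0 FPKM in Telecephlon and 1.88 FPKM in Olfactory_bulb. Lower were noggin-3, at 3.98 FPKM in Telecephlon and 95.8 FPKM in Olfactory_bulb (log2 ratio -4.28), BMP4 (log2 ratio -3.03), FGF24 (-2.94), Wnt-4a (-2.91) and FGF14 (-2.17). The 5 fibroblast marker models summed to 22.6 FPKM in Telecephlon and 112 FPKM in Olfactory_bulb, with 4 detected in each, and their part in these ratios was not tested.

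Retina was higher than Brain for 8 of 44 signal genes, 18.2% against 6.72% of all genes, and lower for 12, 27.3% against 6.57%. The 5 largest ratios upward were GDF6-A-like (4.02 on the log2 scale), frizzled-5 (3.81), membrane frizzled-related protein (3.46), chordin-like protein 2 (3.40) and FGF24 (3.06). Downward they were FGF-binding protein 1 (-5.69), hedgehog acyltransferase-like (-4.72), Wnt-7a (-3.77), Wnt-7b (-3.04, C0J45_09582) and frizzled-10 (-2.67). FGF-binding protein 1 was at 7.15 FPKM in Retina and 419 FPKM in Brain, and GDF6-A-like at 22.4 FPKM in Retina and 0.439 FPKM in Brain. With the median log2 ratio of all genes, -0.10, set to 0, the counts were 8 higher and 10 lower, against 7.14% and 5.78% of all genes. The 5 fibroblast marker models summed to 789.5 FPKM in Retina and 170.3 FPKM in Brain, with 4 detected in each, and the 6 neural models to 769 FPKM in Retina and 9900.1 FPKM in Brain, with 5 detected in each. Most of the neural sum in Brain was myelin basic protein (C0J45_18875 at 7447 FPKM and C0J45_17922 at 1140 FPKM). Synaptosomal-associated protein 25-B (C0J45_07583) went the other way, at 403 FPKM in Retina and 13.1 FPKM in Brain, as did C0J45_11493, below 1 FPKM in both. The part of these cell types in the ratios was not tested.

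In the gonads few signal genes reached 5 FPKM. Of 5 compared, 1 was higher in Ovary, 20% against 41.9% of all genes, and 3 were lower, 60% against 24.3%. sFRP-2-like was at 68.7 FPKM in Ovary and 0.0427 FPKM in Testis. sFRP-3 was at 0.0643 FPKM in Ovary and 12.2 FPKM in Testis, sFRP-1b at 0.0014 FPKM in Ovary and 8.75 FPKM in Testis, and Wnt-9a at 0.0999 FPKM in Ovary and 6.34 FPKM in Testis. The median log2 ratio of all genes compared was 1.43, and the mitochondrial share of the Testis library moves with these levels. Without mitochondrial and hemoglobin genes and with equal sums, 10 signal genes reached 5 FPKM in either gonad and 7 were lower in Ovary, with FGF7, FGF2, BMP3 and wntless added. The 5 fibroblast marker models summed to 120 FPKM in Ovary and 2571 FPKM in Testis, with 3 and 4 detected, and their part in these ratios was not tested. With equal upper quartiles 15 were lower in Ovary. No share of all genes is given beside the 7 or the 15, so these counts do not set the signal genes apart. With the median log2 ratio of all genes set to 0, 1 of 5 was higher and 3 were lower, against 20.2% and 33.7% of all genes.

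Spleen was higher than Head_kidney, the other blood-forming organ, for 6 of 20 signal genes, 30.0% against 5.45% of all genes, and lower for 2, 10% against 3.08%. sFRP-1a was at 67.1 FPKM in Spleen and 1.04 FPKM in Head_kidney (log2 ratio 5.06), BMP5 at 40.9 FPKM in Spleen and 4.14 FPKM in Head_kidney, and BMP3 at 15.0 FPKM in Spleen and 0.351 FPKM in Head_kidney. Frizzled-7a, Wnt-5a and Wnt-2b were the other genes higher in Spleen. FGF receptor 4 was at 1.24 FPKM in Spleen and 8.14 FPKM in Head_kidney, and sFRP-5 at 1.41 FPKM in Spleen and 9.47 FPKM in Head_kidney. With every library set to the same summed FPKM, 0 were lower in Spleen. Without mitochondrial and hemoglobin genes the counts were 6 higher and 2 lower, as reported. The 5 fibroblast marker models summed to 1680 FPKM in Spleen and 171 FPKM in Head_kidney, with 4 detected and 1 listed at 0 in each. Nearly all of both sums was collagen I. The platelet-derived growth factor receptor alpha (C0J45_19834) went the other way, at 1.56 FPKM in Spleen and 1.84 FPKM in Head_kidney. The 4 endothelium models summed to 57.7 FPKM in Spleen and 26.9 FPKM in Head_kidney, all detected. The part of these cell types in the Spleen and Head_kidney ratios was not tested.

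Copies that share a protein name, with the ending -like ignored, mostly differed in their highest tissue. There were 27 pairs of such copies, and in 25 of them both copies reached 1 FPKM. In 5 of the 25 both copies had the same highest tissue. Each GDF6-A or GDF6-A-like model enters more than 1 pair. No share for copies of other genes is given, so the count does not set these copies apart. Some of the rest peaked in related libraries, such as FGF14 in Olfactory_bulb and Telecephlon (r = 0.889) and Wnt-7b in Brain and Telecephlon (r = 0.569). Across 18 tissues the Pearson r of log2(FPKM + 1) had a median of 0.271 and ran from -0.218 to 0.937 over the 25 pairs (a description, since all points share the 18 libraries). The closest copies were FGF13 (r = 0.937), both highest in Telecephlon, and BMP10 (r = 0.890), both highest in Heart. Others parted: the gremlin-1 copies peaked in Gill (C0J45_20053) and in Intestine (C0J45_07816, 10.9 FPKM), the Wnt-11 copies in Heart and in Retina (C0J45_21683, 3.83 FPKM), and the noggin-3 copies in Olfactory_bulb and in Kidney (C0J45_23466, 3.15 FPKM). A GDF6-A copy (C0J45_07881) peaked in Kidney at 9.98 FPKM and in Intestine at 6.02 FPKM, while GDF6-A-like was at most 0.886 FPKM outside Retina. Where copies are nearly identical, fragments can be split between them, and no label or header tells how the authors counted them.

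**Figure D5:**
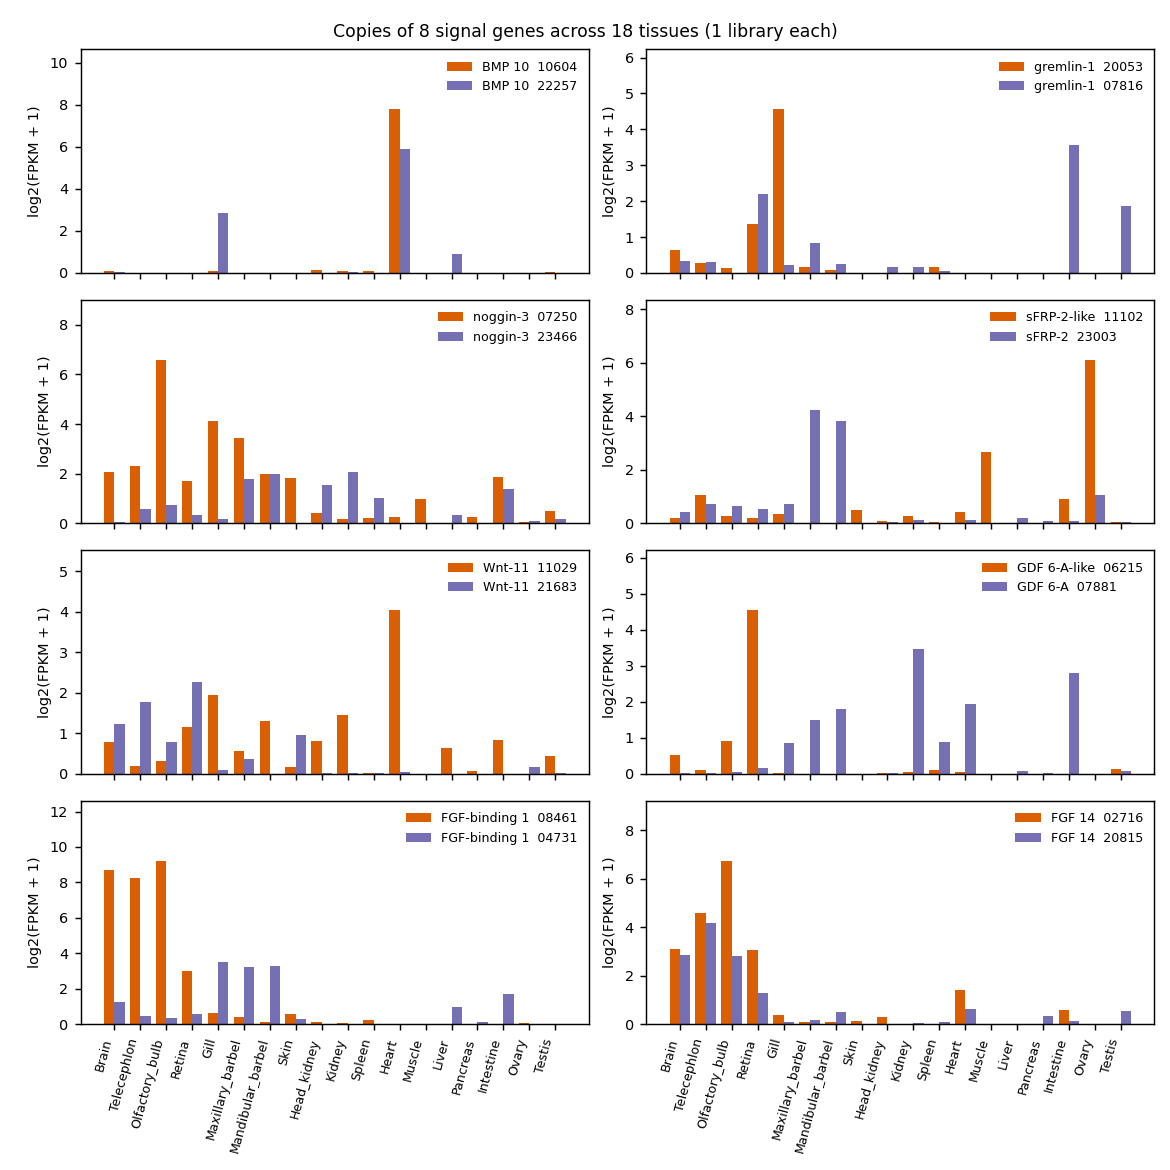
Levels, as log2(FPKM + 1), of both copies of 8 signal genes in 18 tissues (1 library each). The BMP10 copies share Heart, while the copies of gremlin-1, noggin-3, sFRP-2, Wnt-11, GDF6-A and FGF-binding protein 1 have different highest tissues, and those of FGF14 peak in Olfactory_bulb and Telecephlon. Digits after a name end its model number.

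Of the 139 models 137 lay on 29 chromosome-named sequences, and 12 pairs of signal genes lay within 100000 bases of each other. Coordinates are those of the deposited gene models, whose build no label or header names. Several pairs are known neighbours in vertebrates, such as Wnt-1 with Wnt-10b (C0J45_14453 and C0J45_14454, chr16, 6636 bases apart), Wnt-3a with Wnt-9a (chr6), FGF23 with FGF6 (chr18, 7835 bases apart), and FGF3, FGF4 and FGF19 (chr9). Desert hedgehog lay 55416 bases from Wnt-1, FGF5 68849 bases from BMP3 on chr27, the type 2 BMP receptor 94003 bases from frizzled-7a on chr3, and FGF-binding proteins 2 and 1 were 5145 bases apart on chr5. Most neighbours differed in their highest tissue, and no share for neighbours among all genes is given beside this. Only Wnt-1 with Wnt-10b (Brain) and FGF5 with BMP3 (Spleen) shared it, and Wnt-1 and FGF5 stayed below 1 FPKM. Wnt-3a (C0J45_06494) and Wnt-9a each peaked in a barbel (r = 0.605 over 18 tissues). Wnt-3a had 3.10 FPKM in Mandibular_barbel and 2.60 FPKM in Maxillary_barbel, and Wnt-9a had 34.2 and 56.4 FPKM in the same libraries. GDF10 (C0J45_06811, Telecephlon) and GDF2 (C0J45_06812, Liver) lie 2745 bases apart on chr7 (r = 0.0887), and FGF19 peaked at 15.4 FPKM in Liver where FGF4 and FGF3 were at 0.0536 and 0.0294 FPKM. At a wider distance, the Gill-enriched kielin/chordin-like protein and BMP16 lie 265875 bases apart on chr13 (r = 0.793). They are 1 of 41 pairs within 1000000 bases, over which r ran from -0.244 to 0.864. Both were already called Gill-enriched, and that shared peak raises their r, so it says nothing on their being neighbours.

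Protein domains listed in the deposited annotation matched the names. All 23 Wnt ligands carried a Wnt domain, all 12 frizzled receptors and all 6 sFRPs a frizzled domain, all 12 BMP ligands and all 11 GDFs a transforming growth factor-beta domain, all 32 FGF ligands an FGF domain and all 4 hedgehogs a hedgehog domain. Of the 139 models, 54 were marked as partial.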

How the data were processed

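RNA was extracted with Trizol, treated with DNase I, enriched for poly(A) on DynaBeads and made into paired-end libraries with a Gnomegen kit, per the labels' protocols, 1 library for each of 18 tissues. The authors deposited FPKM per gene model for 25390 models, and StringTie 1.3.4d is named in the submitters' processing notes. No label or header names the aligner, genome build, strand setting or treatment of shared reads. The deposited feature table, of 25451 models, gave product names, positions, domains and coding lengths. No counts were used. Whole reads were not recovered, so no count test was run.

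Members were found by the rule on product names with letter case ignored (138 with case kept), and families and roles were assigned from the names. The members and lists were chosen with earlier results of these data known. A gene was detected at an FPKM of 1 or more. Tissue-enriched meant 10 FPKM or more with FPKM + 1 at least 5 times that of the next tissue, and group-enriched the same for every tissue of 1 of 8 groups against the rest. Tau was computed on log2(FPKM + 1) for genes at 1 FPKM or more in some tissue. Of 9 pairs of libraries computed, Muscle over Heart and Kidney over Head_kidney are not described. Named genes were all enriched members, the 3 highest of each family, the highest of each tissue, the 5 largest ratios per pair and direction, neighbours, differing copies and the highest genes of the pathway lists, and further members named beside them were chosen after their values were seen. Pathway symbols that matched no product name have no value.

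Depth was estimated from the commonest low value of FPKM times coding kilobases, read as 1 fragment, and it is lower by a factor of 2 if that value is 1 read. Floors of 3 fragments cover counting error only. Mitochondrial genes were 8 models and hemoglobin 17. The counting rules were tested on simulated data. Python 3.11.15, numpy 2.4.6, pandas 2.3.3 and matplotlib 3.10.9 were used. Alternatives changed thresholds, the pseudocount, library scaling, the averaging of related tissues and the libraries included.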

Additional observations from a re-analysis of the deposited data

How the results depend on the processing

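With 1 library per tissue, no value here has a replicate error, and differences in depth, RNA quality or animal cannot be told apart from tissue. No paired analysis was possible because each tissue is 1 library and no result comes from a test. Of the summary values, 110 moved little and 30 moved past the limit, none reversed, and of the values for single genes 70 of 77 moved little. The 77 include ratios with Testis, Skin or Muscle left out, which cannot change unless that library was the highest or next tissue. This was so only for sFRP-2-like, whose log2 ratio was 3.47 as reported and 5.07 without Muscle. The 70 thus include outcomes fixed in advance and overstate the stability. A minimum of 5 FPKM gave a median of 19.5 signal genes per tissue, against 51. Tissue-enriched genes numbered 5 with a 10-fold ratio, against 11. Group-enriched genes, 2 as reported, were 5 with a 3-fold ratio, 4 with a pseudocount of 0.1, 4 with equal summed FPKM and 1 with equal upper quartiles. A pseudocount of 0.1 left 20 genes with a tau of at least 0.85, against 46. With an 8-fold limit, genes past it were 0 higher in Maxillary_barbel over Mandibular_barbel, 4 higher in barbels over Skin, 3 higher and 6 lower in barbels over Gill, 1 higher and 2 lower in Telecephlon over Olfactory_bulb, 4 lower in Retina over Brain and 0 lower in Spleen over Head_kidney, where a stricter limit by its construction counts fewer. A pseudocount of 0.1 gave 2 higher in Maxillary_barbel and 4 higher in Telecephlon. A minimum of 1 FPKM gave 1 lower in Maxillary_barbel and 5 lower in Ovary over Testis. Setting the median ratio to 0 gave 3 higher and 1 lower of 28 in barbels over Skin, against 7.80% and 9.62% of all genes. Equal upper quartiles gave 6 higher in barbels over Skin, 1 higher in Telecephlon, and 2 higher and 15 lower in Ovary over Testis. Without mitochondrial and hemoglobin genes 7 were lower in Ovary, and no share of all genes is given beside the 15 or the 7. With equal summed FPKM, 0 were lower in Spleen. Of 12 families, 7 kept their highest tissue with means in place of medians, and 7 with equal upper quartiles. Within 1000000 bases there were 41 neighbour pairs, against 12. The cause of these moves was not tested. Counts without the Skin, Muscle or Testis library, chosen after seeing the data, stayed within 1.5 times the reported ones for enriched genes and for high tau. No signal gene was enriched in those libraries, and the brain and barbel groups do not include them. Leaving them out could therefore add enriched genes but not remove any, so the kept counts of enriched genes are no check. At the depth of Skin and Muscle, low levels of a gene are least certain.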
